A study of Mus musculus with 6 samples.

Results

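The odour transduction cascade was examined in the nasal tissue of newborn mice that carried or lacked Atf5, which encodes a bZIP transcription factor related to ATF4. The cascade was taken as 10 named genes, Gnal, Gng13, Ric8b, Adcy3, Cnga2, Cnga4, Cngb1, Ano2, Slc24a4 and Omp, and all 10 were measured among 19937 genes of the array. A gene was read from rows annotated with exactly 1 symbol. Of the 10, 9 had 1 such probe set and Cngb1 had 4, of which the one with the highest mean over the 6 arrays stood for the gene. Septa and turbinates were dissected on postnatal day 0 from Atf5-/- pups, the knockout, and from Atf5+/+ pups, the wild type. All pups were of the C57BL6 strain and came from crosses of Atf5+/- parents. Each genotype had 3 samples, each pooled from 3 pups and hybridised to 1 array. Which part of Atf5 was removed is not given in the labels.

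In olfactory sensory neurons, an odorant receptor on the cilia activates a stimulatory G protein whose alpha subunit, Golf, is encoded by Gnal. Golf turns on the adenylyl cyclase Adcy3, and the cyclic AMP that results opens a channel built from Cnga2, Cnga4 and Cngb1, which lets sodium and calcium in. Calcium opens the chloride channel Ano2, which amplifies the current, and is then cleared by the sodium-calcium-potassium exchanger Slc24a4. Omp, olfactory marker protein, is an abundant protein of mature olfactory neurons and the usual marker of that stage.

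Of the 10 genes, 8 fell in the knockout, none rose and 2 did not pass the test. The test was limma across all 19937 genes with Benjamini-Hochberg adjustment and a threshold of 0.05, of which 3.24% were called lower and 0.502% higher. The decrease ran from 1.67-fold for Adcy3 to 5.13-fold for Gnal, and 7 of the 8 were at least 2-fold lower. Of all genes, 71 (0.356%) passed as lower with a decrease of at least that size. The median log2 change was -1.43 over the 10 genes and 0.01 over all genes. In those 8 genes every knockout array lay below every wild-type array, which was so for 10.3% of all genes. Cngb1 and Slc24a4 were the 2 that did not pass. All values are RMA values read as log2 levels, and errors of changes are limma's moderated standard errors. In a dissected tissue, fewer mature neurons and less of a transcript per neuron cannot be told apart.

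**Figure D1:**
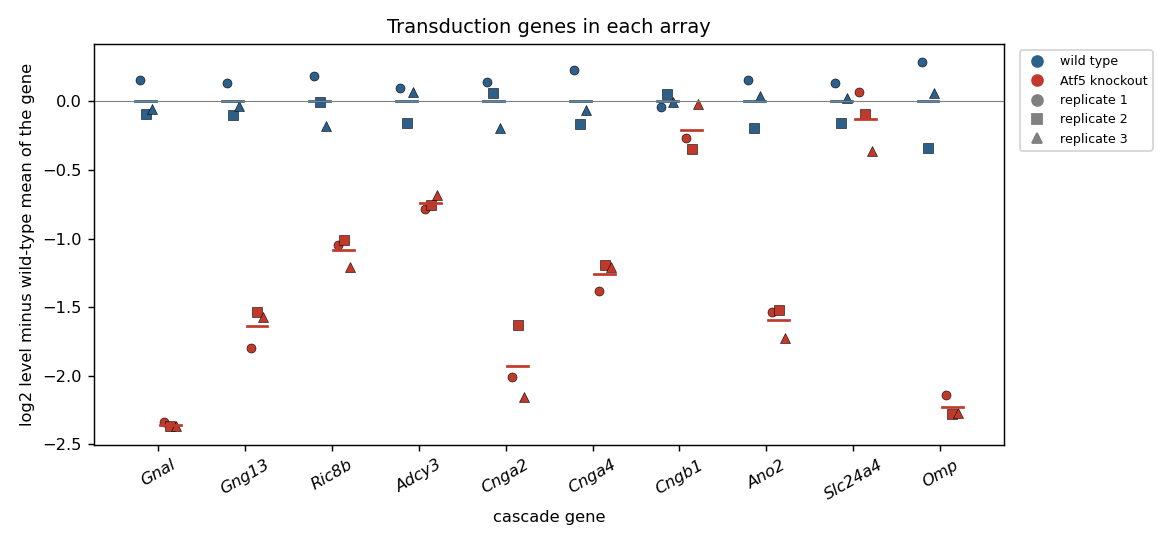
Each point is 1 array, plotted as the gene's log2 level minus its mean in the 3 wild-type arrays, with a bar at the mean of each genotype. The knockout arrays of 8 genes lie below all wild-type arrays, with mean differences from -2.36 for Gnal to -0.74 for Adcy3, while those of Cngb1 and Slc24a4 overlap the wild type.

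Atf5 itself was at 9.43, 9.44 and 9.50 in the knockout arrays and at 10.54, 10.96 and 10.63 in the wild-type arrays, a log2 change of -1.25 (SE 0.10, adjusted p = 0.000499 by limma), so that every library labelled knockout was lower in the targeted gene than every wild-type library. Array medians were 8.67 to 8.72, and Pearson correlations over all rows were 0.992 to 0.994 within a genotype and 0.988 to 0.992 between genotypes. Markers of neighbouring tissues differed between single arrays. The mean of 5 skeletal muscle genes was 9.11 in wild-type replicate 1 and 10.3 to 10.7 in the other arrays. The mean of 3 tooth enamel genes was 11.6, 11.3 and 9.41 in the wild type and 7.98 to 9.02 in the knockout, and 2 of the 3 passed as lower. Their part in the results was not tested. Wild-type replicate 1 held the highest wild-type value of 9 of the 10 cascade genes, and with it left out 8 of the 10 were again called lower, adjusted p from 7.35e-06 to 0.00693 by limma. Supporting cell markers were present, with array means of 6 sustentacular genes of 11.2 to 11.6 in the knockout and 11.4 to 11.7 in the wild type. None of the 6 passed by limma, 4 changes being negative and 2 positive. Of the 6, 1 had an unadjusted p under 0.05 by limma, against 3209 of all 19937 genes. It was Cyp2g1, at -0.36 (SE 0.09, adjusted p = 0.076 by limma). All its knockout arrays lay below all wild-type arrays, as in 10.3% of all genes.

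The G protein was lowered in both of the subunits measured here as members. Gnal, the alpha subunit, was at 9.52, 9.49 and 9.49 in the knockout arrays and at 12.01, 11.76 and 11.80 in the wild-type arrays. The 3 knockout values lay within a narrow band (SD 0.02) and far below the lowest wild-type array. The log2 change was -2.36 (SE 0.08, adjusted p = 2.12e-06 by limma), or 5.13-fold lower (95% interval 4.56 to 5.77), the change with rank 4 from the lowest of all genes. Gng13, the gamma subunit that pairs with the beta subunit in these neurons and that is also made by other chemosensory cells, was at 9.23, 9.49 and 9.46 in the knockout and at 11.17, 10.93 and 11.00 in the wild type. Its groups did not overlap, and it was 3.10-fold lower (2.69 to 3.57; log2 change -1.63, SE 0.09, adjusted p = 6.23e-05 by limma).

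Ric8b, an exchange factor and chaperone of Golf that is needed for the stable level of that alpha subunit, was at 10.33, 10.36 and 10.16 in the knockout and at 11.55, 11.37 and 11.19 in the wild type. The groups did not overlap, and the log2 change was -1.09 (SE 0.10, adjusted p = 0.000676 by limma), or 2.12-fold. Adcy3, the cyclase that makes cyclic AMP, had the smallest decrease of the 8 that passed. It was at 9.39, 9.42 and 9.49 in the knockout and at 10.27, 10.01 and 10.24 in the wild type. The gap between the highest knockout and the lowest wild-type array was 0.52, and the change was -0.74 (SE 0.08, adjusted p = 0.00146 by limma), or 1.67-fold (1.47 to 1.89).

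Of the 3 subunits of the cyclic nucleotide-gated channel, 2 fell and the third did not pass by the probe set chosen. Cnga2, the subunit that can form a channel alone, was at 9.04, 9.41 and 8.88 in the knockout and at 11.18, 11.10 and 10.85 in the wild type. Knockout replicate 2 was the highest of the knockout arrays but stayed well below the wild type, and the change was -1.93 (SE 0.14, adjusted p = 0.000249 by limma), or 3.81-fold lower (3.09 to 4.71). Cnga4, a modulatory subunit that speeds the closing of the channel by calcium-calmodulin, was at 7.21, 7.40 and 7.39 in the knockout and at 8.82, 8.43 and 8.53 in the wild type. These groups did not overlap either, with a change of -1.26 (SE 0.10, adjusted p = 0.000499 by limma), or 2.39-fold lower. Its mean over the 6 arrays was the only one of the 10 under the 30th percentile of genes, 8.14, and changes of such dim probe sets may be compressed.

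Cngb1, the third subunit, depended on the probe set. By the probe set with the highest mean, 10580852, it was at 9.38, 9.30 and 9.63 in the knockout and at 9.61, 9.70 and 9.64 in the wild type. Knockout replicate 3 lay within the wild-type values, and the change of -0.21 (SE 0.09, 95% interval -0.41 to -0.01) did not pass (adjusted p = 0.274 by limma, 0.0492 without knockout replicate 3). Probe set 10580829 stood apart, at 8.51, 8.44 and 8.57 in the knockout and at 9.56, 9.54 and 9.46 in the wild type. Its groups did not overlap, and in a fit on all 34760 rows, of which 1.03% were called lower, it changed by -1.01 (SE 0.06, adjusted p = 0.00285 by limma). In the same fit 10580854 changed by -0.10 (95% interval -0.27 to 0.08) and 10580850 by -0.01 (-0.24 to 0.21), and neither passed. All 4 probe sets are annotated to the same RefSeq transcript. The annotation of 10580854 adds a curated transcript that the other 3 lack, and that of 10580829 adds a predicted one. With the 4 probe sets averaged, Cngb1 changed by -0.33 and passed (adjusted p = 0.0288 by limma), and 9 of the 10 genes were called lower. This choice of probe set was examined after the values were seen.

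**Figure D2:**
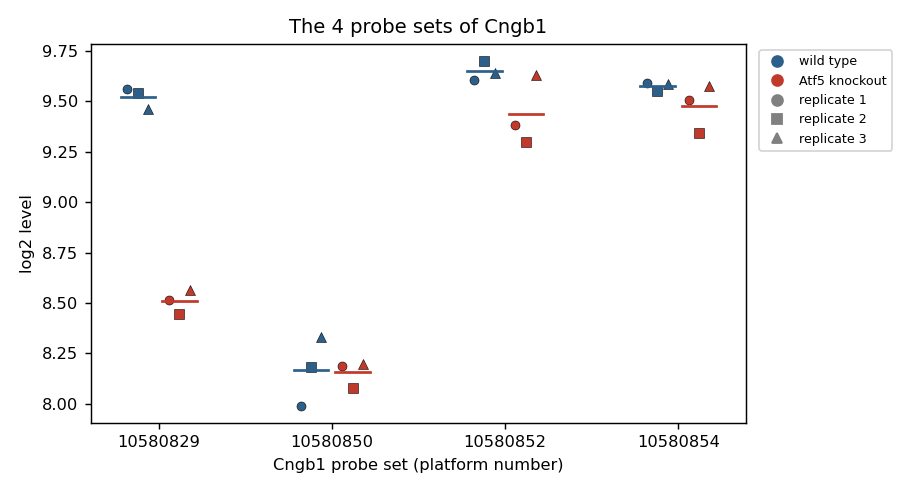
The log2 level of each Cngb1 probe set is plotted for each array, with a bar at the mean of each genotype. Levels of different probe sets are not comparable with each other, and only at 10580829 are all knockout arrays (8.44 to 8.57) below all wild-type arrays (9.46 to 9.56).

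Of the 2 genes downstream of the channel, 1 fell. Ano2, the chloride channel, was at 8.62, 8.63 and 8.43 in the knockout and at 10.31, 9.96 and 10.19 in the wild type. Its groups were far apart, and it was 3.02-fold lower (2.59 to 3.52; log2 change -1.59, SE 0.10, adjusted p = 0.000103 by limma). Slc24a4, the exchanger that clears calcium at the end of the response, was at 10.48, 10.32 and 10.05 in the knockout and at 10.54, 10.25 and 10.43 in the wild type. The groups overlapped, and the change of -0.13 did not pass (SE 0.11, 95% interval -0.39 to 0.13, adjusted p = 0.656 by limma).

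Omp was at 9.21, 9.06 and 9.07 in the knockout and at 11.63, 11.00 and 11.40 in the wild type. It was 4.69-fold lower (3.79 to 5.81; log2 change -2.23, SE 0.14, adjusted p = 0.000103 by limma), and the spread of its wild-type arrays (SD 0.32) was the widest among the 8 genes that passed. Mature neuron genes outside the cascade stood alongside it: all 7 in the list, Stoml3, S100a5, Rtp1, Rtp2, Faim2, Umodl1 and Kirrel2, passed as lower, with log2 changes from -2.75 to -0.81 and a median of -1.48. That list was chosen with earlier results of these data known.

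To show how unevenly the genes moved, each was set against Omp within the same array; a value of 0 for the difference between genotypes means a change equal to that of Omp. The level of Gnal minus that of Omp was 0.31, 0.42 and 0.41 in the knockout, against 0.38, 0.76 and 0.40 in the wild type, and the groups overlapped (exact permutation p = 0.6). Between same-numbered arrays this difference was -0.07, -0.33 and 0.02, of mixed sign. For Cnga2 the difference from Omp was higher in the knockout by 0.30, and the groups overlapped (exact permutation p = 0.4). Between same-numbered arrays it was higher in the knockout in all 3 pairs, by 0.28, 0.25 and 0.36 (exact paired permutation p = 0.25, the smallest that 3 pairs allow). In the other 7 genes the groups did not overlap: relative to Omp the knockout was higher by 0.60 for Gng13, 0.64 for Ano2, 0.97 for Cnga4, 1.14 for Ric8b, 1.49 for Adcy3, 2.02 for Cngb1 (1.22 by its probe set 10580829) and 2.10 for Slc24a4. Each of these 7 gave an exact 2-sided permutation p of 0.1, the smallest that 3 against 3 samples allow, and 0.129 after adjustment over the 9 comparisons, so no difference from Omp could pass. Omp itself changed by -2.23, rank 6 from the lowest of all genes. A gene without change would thus also be higher in the knockout relative to Omp. The share of all genes without overlap on this measure was not counted. The change of Cnga4, a dim probe set, may be compressed.

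**Figure D3:**
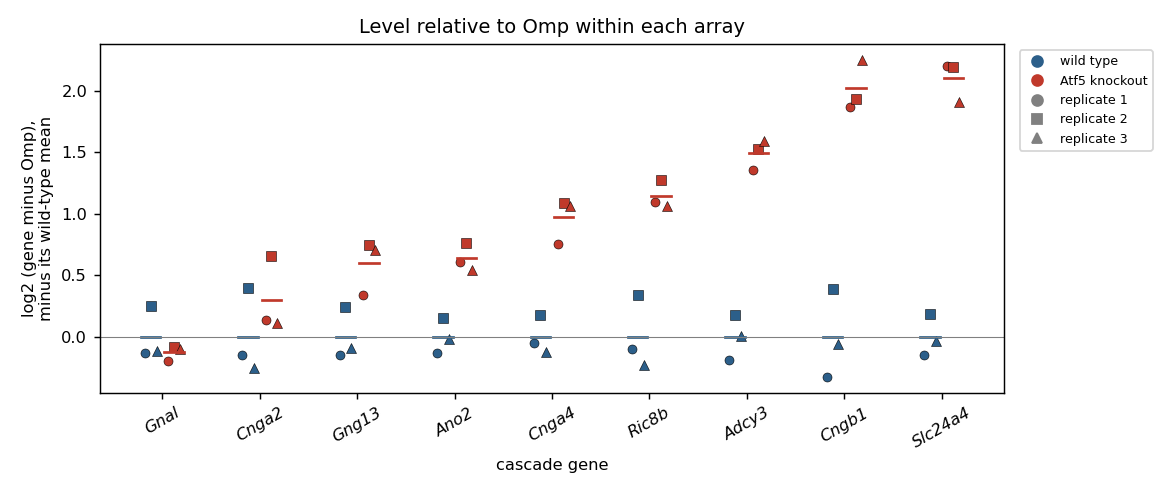
Each point is 1 array, plotted as the log2 level of the gene minus that of Omp, after subtraction of the wild-type mean of this difference, with a bar at each genotype's mean. Gnal (-0.13) and Cnga2 (0.30) overlap between genotypes, though Cnga2 is higher in the knockout in all 3 same-numbered pairs. The distance reaches 2.02 for Cngb1 (1.22 by probe set 10580829) and 2.10 for Slc24a4. A gene without change would also be higher in the knockout here, since Omp itself changed by -2.23.

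Within the channel, Cnga4 minus Cnga2 was -1.82, -2.01 and -1.49 in the knockout, against -2.35, -2.67 and -2.32 in the wild type, a mean difference between genotypes of 0.67. With Cngb1 read by the probe set chosen, this difference was 1.72 for Cngb1 minus Cnga2 and 1.05 for Cngb1 minus Cnga4. In these 3 comparisons the groups did not overlap. Each of the 3 comparisons had an exact permutation p of 0.1, the smallest possible, also after adjustment over the 3. The change of Cnga4, a dim probe set, may be compressed, which would alter these differences. With probe set 10580829 in the place of Cngb1, the difference was 0.92 against Cnga2 and 0.25 against Cnga4, where the groups overlapped.

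The 250 bases upstream of the RefSeq transcription starts (assembly GRCm38.p6) are shown for the 5 genes with the core of the Ebf binding site. Ebf proteins are known regulators of olfactory neuron genes, and these windows belong both to genes that fell and to genes that did not pass. The letters searched were CCCNNGGG, which read the same on both strands, and they are in capitals. No window was available for Gnal or Omp. Windows were available for the other 8 of the 10 genes (12 windows, some genes having several starts). They lie at chrX:71991599-71991848 on the plus strand for Cnga2, at chr17:25716922-25717171 on the plus strand for Gng13, at chr6:125710938-125711187 on the plus strand for the most downstream of 3 starts of Ano2, at chr8:95306586-95306835 on the minus strand for Cngb1, and at chr12:102128477-102128726 on the plus strand for Slc24a4.
Cnga2: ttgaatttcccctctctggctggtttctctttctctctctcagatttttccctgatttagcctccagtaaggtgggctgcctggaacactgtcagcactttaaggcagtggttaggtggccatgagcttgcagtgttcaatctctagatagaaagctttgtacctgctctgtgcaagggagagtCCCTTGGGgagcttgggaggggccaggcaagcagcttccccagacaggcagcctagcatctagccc
Gng13: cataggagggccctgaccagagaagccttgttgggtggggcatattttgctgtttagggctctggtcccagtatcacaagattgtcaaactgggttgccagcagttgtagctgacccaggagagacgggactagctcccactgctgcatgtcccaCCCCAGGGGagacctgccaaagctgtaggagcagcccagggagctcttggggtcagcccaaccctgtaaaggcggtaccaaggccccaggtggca
Ano2: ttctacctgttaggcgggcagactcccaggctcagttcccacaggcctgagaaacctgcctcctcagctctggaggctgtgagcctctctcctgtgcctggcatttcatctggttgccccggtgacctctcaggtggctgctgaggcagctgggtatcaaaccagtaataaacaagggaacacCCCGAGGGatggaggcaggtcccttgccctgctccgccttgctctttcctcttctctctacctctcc
Cngb1: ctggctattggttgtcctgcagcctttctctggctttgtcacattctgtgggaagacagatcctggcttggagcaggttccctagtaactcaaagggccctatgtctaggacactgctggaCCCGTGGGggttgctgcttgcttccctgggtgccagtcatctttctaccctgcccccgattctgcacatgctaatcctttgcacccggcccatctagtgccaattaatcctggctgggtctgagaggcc
Slc24a4: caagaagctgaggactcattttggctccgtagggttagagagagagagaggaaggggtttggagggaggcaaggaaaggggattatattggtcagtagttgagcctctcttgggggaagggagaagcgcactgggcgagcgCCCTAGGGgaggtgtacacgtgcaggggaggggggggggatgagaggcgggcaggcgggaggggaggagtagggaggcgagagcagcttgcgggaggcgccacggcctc
The core begins 66 bases before the start in Cnga2, 67 in Ano2, 109 in Slc24a4 and 129 in Cngb1. In Gng13 it is read in 2 overlapping registers, 95 and 94 bases before the start. It was present in 5 of the 12 windows of cascade genes and in 11.8% of all 32851 windows of that length. Of the 5 genes that hold it, Cnga2, Gng13 and Ano2 fell and Slc24a4 did not pass. Cngb1 did not pass by the probe set chosen, but fell by 10580829 (-1.01) and with its 4 probe sets averaged (-0.33). Cnga4, Ric8b and Adcy3 fell without these letters in their windows. Windows of cascade genes had a GC content of 52.8% to 69.2%, against a median of 52.4% for all windows. The cyclic AMP response element TGACGTCA (1.55% of all windows) and the C/EBP-ATF element TGATGNAA (3.45%), searched on both strands, were found in none of the 12. Only these exact letters were searched, and at such low shares their absence from 12 windows says little. Of the 4 Ebf genes, Ebf4 fell (-0.51, SE 0.07, adjusted p = 0.00519 by limma), while Ebf1 (-0.07, SE 0.07), Ebf2 (-0.12, SE 0.07) and Ebf3 (-0.15, SE 0.07) did not pass.

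Among 14 measured genes that work beside the cascade, as partners or in feedback and shut-off, 3 fell and 11 did not pass. The median log2 change was -0.13, and 3.24% of all genes were called lower. Pde4a, a phosphodiesterase that degrades cyclic AMP in these neurons, was at 9.03, 8.75 and 8.98 in the knockout and at 9.65, 9.41 and 9.59 in the wild type (change -0.63, SE 0.09, adjusted p = 0.00641 by limma). Pde1c, the calcium-calmodulin dependent phosphodiesterase of olfactory cilia, was at 9.52, 9.56 and 9.54 against 10.12, 9.996 and 10.06 (change -0.52, SE 0.06, adjusted p = 0.00214 by limma). In both genes all knockout arrays were lower. Gnb1, the beta subunit that completes the Golf heterotrimer, was at 13.70, 13.74 and 13.72 in the knockout and at 14.07, 14.01 and 13.98 in the wild type, with the smallest change of the 3 (-0.30, SE 0.06, adjusted p = 0.0227 by limma). Its call ended when any 1 array other than knockout replicate 3 was left out (adjusted p from 0.0547 to 0.109 by limma), and with all rows tested (0.0716). The other 11, calmodulin, arrestin, receptor kinase and calmodulin kinase genes among them, ranged from -0.27 to 0.24. Of the 14 genes, 6 had an unadjusted p under 0.05 by limma, against 3209 of all 19937 genes. Of the 11 that did not pass, 3 had such a p. The lowest of them, the calmodulin kinase gene Camk2a, named after its values were seen, had an adjusted p of 0.0513 by limma and of 0.0455 with the replicate number as a block, which made the number lower 4 of 14.

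None of 8 measured genes of chloride loading and calcium clearance passed by limma, with a median of -0.04. Of the 8, 2 had an unadjusted p under 0.05 by limma, against 3209 of all 19937 genes. Slc12a2, the cotransporter that loads the neurons with chloride, changed by 0.04 (SE 0.07, adjusted p = 0.831) and the bestrophin Best2 by 0.00 (SE 0.08, adjusted p = 0.998). Slc8a1, a sodium-calcium exchanger, was at 8.51, 8.53 and 8.35 in the knockout and at 8.97, 8.69 and 8.80 in the wild type. All knockout arrays were lower, at -0.36 (SE 0.09), and the gene missed the threshold in this fit (adjusted p = 0.0578 by limma) but passed with the replicate number as a block (0.0275) and without wild-type replicate 2 (0.0475).

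Of 28 measured paralogs of the cascade proteins, 2 fell, 26 did not pass and the median was 0.01, where 3.24% of all genes were called lower. One was Slc24a2, an exchanger of the same family as Slc24a4, at 9.53, 9.54 and 9.19 in the knockout and at 10.63, 10.14 and 10.37 in the wild type. It was 1.94-fold lower (1.58 to 2.39; change -0.96, SE 0.13, adjusted p = 0.00478 by limma), and whether it differed from Slc24a4 was not tested. The other was Gng8, a gamma subunit of immature and vomeronasal neurons (change -0.45, SE 0.09, adjusted p = 0.0225 by limma), whose call ended without wild-type replicate 1 (0.1001) or 2 (0.0724) and with all rows tested (0.0896). The Ric8b paralog Ric8a was at 0.24 (SE 0.10, adjusted p = 0.264 by limma) and Gng7 at 0.01 (SE 0.08). None of the 9 other adenylyl cyclases passed by limma (0 at an unadjusted p under 0.05), with changes from -0.05 to 0.15.

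**Figure D4:**
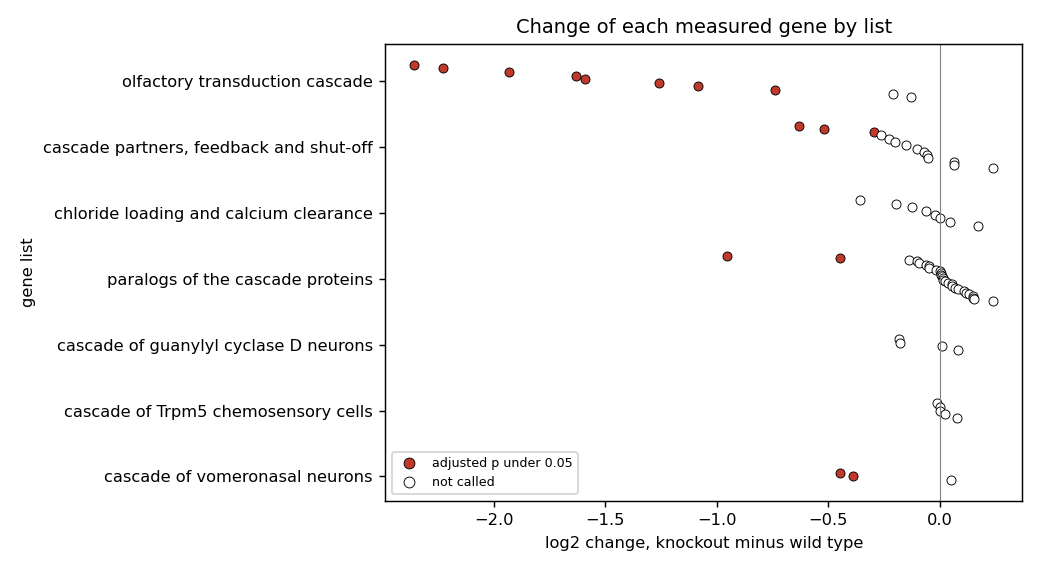
Each point is the log2 change of 1 measured gene, knockout minus wild type, by list, spread vertically only to separate points, and filled where limma's adjusted p was under 0.05. In the first row 8 of 10 genes are filled, from -2.36 to -0.74, while the genes of Trpm5 cells lie between -0.01 and 0.08; genes that stand in 2 lists are drawn in both.

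The cascades of other nasal chemosensory cells were read on the same arrays. For scale, 3.24% of all 19937 genes were called lower and 3209 had an unadjusted p under 0.05 by limma. In neurons with guanylyl cyclase D, which use cyclic GMP, none of 4 genes passed by limma (1 at an unadjusted p under 0.05): Gucy2d, the cyclase itself, was at -0.18 (SE 0.06, adjusted p = 0.151 by limma), with 8.08, 8.15 and 8.13 in the knockout against 8.30, 8.30 and 8.30 in the wild type, and the channel subunit Cnga3 at 0.01 (SE 0.07). In Trpm5 chemosensory cells, none of 5 passed by limma (0 at an unadjusted p under 0.05), Trpm5 being at -0.00 (SE 0.07), the phospholipase Plcb2 at -0.01 (SE 0.06) and the calcium release channel Itpr3 at 0.08 (SE 0.06). Of 3 measured genes of the vomeronasal cascade 2 fell, Gng8 and Gnao1 (-0.39, SE 0.07, adjusted p = 0.0159 by limma), a G protein alpha subunit that is also common in other neurons, and Gnai2 was at 0.05 (SE 0.06). The call of Gnao1 ended without knockout replicate 1 or wild-type replicate 1 or 2 (adjusted p from 0.0506 to 0.073 by limma) and with all rows tested (0.0651). Leaving out either wild-type replicate 1 or 2, or testing all rows, ended both calls and left a vomeronasal count of 0 of 3. Of 5 immature neuron markers 2 fell by limma, Gap43 (-0.43) and Dcx (-0.68). All 5 changes were negative, with a median of -0.26, and 4 had an unadjusted p under 0.05, against 3209 of all 19937 genes.

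The mean profile of the 10 genes, each array minus the gene's own mean, was -0.66, -0.61 and -0.70 in the knockout, against 0.80, 0.55 and 0.62 in the wild type. Cnga4 was the member nearest to it, with a mean absolute difference of 0.08 over the 6 arrays, and Slc24a4 the farthest at 0.59. Outside the members, the nearest genes were Stxbp5l, a syntaxin-binding protein, at 0.07, the long-chain fatty acid CoA ligase Acsl6 at 0.09, the olfactory receptor Olfr513 at 0.09, Plekhb1 at 0.09 and the olfactory receptor Olfr393 at 0.09. Stxbp5l was at 7.79, 7.78 and 7.86 in the knockout and at 9.33, 9.23 and 9.18 in the wild type, a change of -1.43. The other 4 changed by -1.43, -1.41, -1.19 and -1.13 in the same order. Likeness was measured on the same arrays that hold the genotype difference, and is given as a description.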

How the data were processed

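RNA was measured on 6 single-colour whole-transcript arrays, 1 per sample. From their range (4.50 to 14.7), the authors' deposited values were taken as log2 levels. RMA, affy and limma were used per the submitters' processing notes, with versions and genome build not given in the sources used here. RMA equalises array distributions, which hides a change shared by most genes.

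Of 34760 rows, 21640 carried 1 symbol in the platform annotation, 1321 several and 11799 none. The probe set with the highest mean was kept for the 954 genes with several, which left 19937 genes, with no filter on dim ones. The genotypes were compared with limma 3.58.1 (lmFit, eBayes, no covariate) in R 4.3.3; p-values are 2-sided, adjusted over all genes by Benjamini-Hochberg, and called under 0.05. The fit was run on values simulated with independent noise in each array, which cannot test it under deviations that arrays share. Differences within an array were tested by exact permutation. Replicate numbers come from the titles, and the labels call the samples biological replicates. Deviations from the group means of same-numbered arrays correlated at 0.295, 0.122 and 0.234, each over 0.1, the level that the rule used takes as pairing. Differently numbered arrays were not compared in this way, and the labels do not state a pairing. The number was not in the model and was tried as a block.

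The members and lists were chosen with earlier results of these data known. Named genes were the 10 members, Atf5, the first 2 measured genes of each list and up to 4 called genes with the largest change (with none called, the lowest p), and the 5 genes nearest to the members' mean profile. Other list genes named here were chosen after their values were seen. Listed genes without a row of 1 symbol, such as Gnas and Trpc2, were not analysed here. Alternatives were the block, each array left out, quantile normalization again, median centring, a filter at the 30th percentile, the mean of probe sets, all rows, and a trended robust prior. The other Cngb1 probe sets and the paired permutation of differences from Omp were added after seeing the data. Promoter sequences are RefSeq's (GRCm38.p6), from a table that need not match the build of the arrays.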

Additional observations from a re-analysis of the deposited data

How the results depend on the processing

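Of the 10 cascade genes, 8 were called lower with all rows, quantile normalization again, median centring, the trended robust prior and the replicate block, 9 with the mean of probe sets (Cngb1 added), and 7 with the filter at the 30th percentile, which removes Cnga4 from the test. The number was 8 to 9 with 1 array left out, and none was called higher in any of these settings. The replicate block moved the count of higher genes over the whole array to 421 from 100 and changed, among the named genes, the calls of Slc8a1 and Camk2a alone. All rows gave 359 lower and 42 higher rows, and the filter 358 lower genes, against 645 and 100. With 1 array left out the counts were 383 to 584 lower and 27 to 127 higher. In the chloride and calcium list 1 gene was lower with the block and with the trended robust prior, and 0 to 1 with 1 array left out. With all rows, 1 paralog was lower and 0 vomeronasal genes, against 1 to 2 and 0 to 2 with 1 array left out. Partner genes called lower numbered 4 with the block and with quantile normalization again (Camk2a added), 4 with the mean of probe sets (Calm2 added), 2 with all rows (Gnb1 lost) and 2 to 3 with 1 array left out, against 3. Partner genes called higher numbered 0 to 1 with 1 array left out, the 1 being Rgs2 without knockout replicate 3, named after its values were seen. The cause was not tested. By probe set 10580829, Cngb1 minus Omp differed by 1.22 between genotypes, minus Cnga2 by 0.92 and minus Cnga4 by 0.25, the last with overlapping groups. The 6 arrays limit the precision, and no permutation over them can give a p below 0.1.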
